A study of Mus musculus with 4 samples.

Results

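Mature neurons of the mouse brain were followed at single-cell level after transient middle cerebral artery occlusion (tMCAO), a stroke model in which the main artery to 1 side of the forebrain is blocked and then reopened. A cell was counted as a mature neuron when it held a unique molecular identifier (UMI, 1 captured RNA molecule) of at least 3 of the genes Snap25, Syt1, Stmn2 and Meg3, no UMI of Dcx, no more than 1 of Dlx1, Dlx2, Dlx5 and Dlx6os1, and at most 1 UMI in total of Mog, C1qa and Pdgfra. Only cells with 200 to 6000 genes and no more than 10% mitochondrial UMIs entered. Of 54754 such cells, out of 59429 deposited, 751 were mature neurons.

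The 4 groups were sham-operated mice and mice on day 1, day 3 and day 7 after tMCAO, each with 1 library. All animals were labelled as male and 8 weeks old, and the study's methods give the strain as C57/BL6. The ipsilateral hemisphere was digested with papain and cleared of myelin on Percoll before droplet capture, so only neurons that survived dissociation were seen. The series text places the sham sample at day 7, and no source used here says whether a library pools animals. With 1 library a group there is no replicate error: no test was made, and every interval below is a 95% interval for counting error alone.

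Neurons signal by releasing transmitter from synaptic vesicles when the cell body fires, and they spend most of their energy on pumping ions back across the membrane. Excitatory neurons load glutamate into vesicles with the transporters Slc17a7 and Slc17a6, whereas inhibitory neurons make GABA with Gad1 and Gad2. When blood flow stops, adenosine triphosphate falls and glutamate and calcium rise to toxic levels, which makes neurons the cells most easily lost in an infarct. Firing and injury both switch on immediate-early genes such as Fos, Npas4 and Arc.

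The mature neurons came mostly from day 1. The sham library held 86 among 10193 cells (0.844%, 0.675 to 1.04%), the day 1 library 627 among 16714 (3.75%, 3.47 to 4.05%), the day 3 library 15 among 11298 (0.133%, 0.0743 to 0.219%) and the day 7 library 23 among 16549 (0.139%, 0.0881 to 0.208%). The day 1 share was thus 4.45 times that of sham (3.54 to 5.64), and the day 7 share was 0.165 times that of sham (0.0992 to 0.263). The size of these ratios depended on the rule, but not their direction: with at least 2 markers asked for they were 1.84 and 0.457, and with all 4 markers 6.91 and 0.126. Without members carrying markers of other cell classes they were 6.31 and 0.0751, and over the other alternatives run they lay between 3.85 and 6.64 for day 1 and between 0.0948 and 0.250 for day 7. Day 1 gave 83.5% of all mature neurons. With fewer than 20 cells, day 3 was left out of the comparisons and is described by its values only. A share of captured cells follows the other cells in the suspension as well as the neurons, and the 2 cannot be told apart here.

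**Figure D1:**
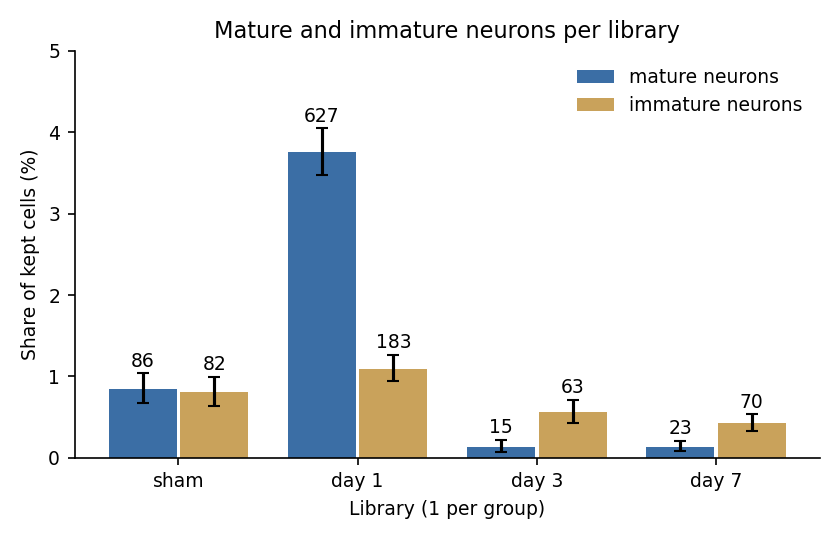
Share of kept cells (%, y axis) that were mature neurons (blue) or immature neurons (gold) in each library (x axis). Bars give the share, error bars the exact binomial 95% interval, and the number over each bar the cells; mature neurons stand at 3.75% on day 1 and at 0.139% or less on days 3 and 7, while immature neurons stay between 0.423% and 1.09%.

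Immature neurons, taken as cells with Dcx and at least 2 of the Dlx genes, were also at their highest share on day 1 and below sham on days 3 and 7, over a narrower range. The difference between the classes was not tested. They made up 0.804% of sham cells (82 cells), 1.09% on day 1 (183 cells), 0.558% on day 3 (63 cells) and 0.423% on day 7 (70 cells). In sham the mature and immature classes were thus close in number, while on day 1 there were more mature neurons and on days 3 and 7 more immature ones.

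Members were chosen by the UMIs of the rule genes, so the values of these genes are a description with no test. All 4 marker genes were detected in 39 sham, 442 day 1, 4 day 3 and 8 day 7 members, and exactly 3 in 47, 185, 11 and 15. Just outside the rule, with 2 of 4 markers and all other conditions met, stood 345, 676, 92 and 297 cells. The day 1 members were therefore mostly well inside the rule, and those of the other libraries mostly at its edge. Levels below are in CPM, the UMIs of a gene summed over the members of a library and scaled to the same total in every library. Snap25, a subunit of the vesicle fusion complex, stood at 837 CPM in sham, 2393 on day 1, 769 on day 3 and 703 on day 7. Meg3, a long non-coding RNA of neurons, ran the other way, at 4474, 2439, 1783 and 3643 CPM. In all other cells of the same libraries Snap25 lay between 5.82 and 140.5 CPM.

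The label was checked against markers of 10 other cell classes, and many members carried them. At least 3 endothelial marker genes were detected in 29 of 86 sham members (33.7%, 23.9 to 44.7%), 137 of 627 on day 1 (21.9%, 18.7 to 25.3%), 5 of 15 on day 3 and 15 of 23 on day 7 (65.2%, 42.7 to 83.6%). For mural cells, the contractile cells of the vessel wall, the numbers were 10, 38, 3 and 7, and for oligodendrocytes 13, 40, 2 and 3. Counting any of the 10 lists, 45 sham members (52.3%), 203 on day 1 (32.4%), 6 on day 3 (40.0%) and 18 on day 7 (78.3%) held at least 3 genes of another class. On day 7 the name mature neuron therefore covers mainly cells that also carry vascular RNA. The immature neuron list, 9 genes such as Sox11 and Stmn1, is not among the 10. At least 3 of its genes were detected in 20 sham, 162 day 1, 10 day 3 and 8 day 7 members. Its summed level was 1424, 3077, 3432 and 891 CPM, beside 9834 CPM in the immature neurons of sham. A Dlx gene was detected in 9, 43, 8 and 4 members. On day 3 the name thus covers mainly cells that also carry immature neuron genes. Scrublet, a doublet caller, marked 0 sham, 69 day 1, 0 day 3 and 1 day 7 members, and no barcode was shared by members of different libraries. The part of other-class RNA in the results was not tested beyond the values given with each of them.

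**Figure D2:**
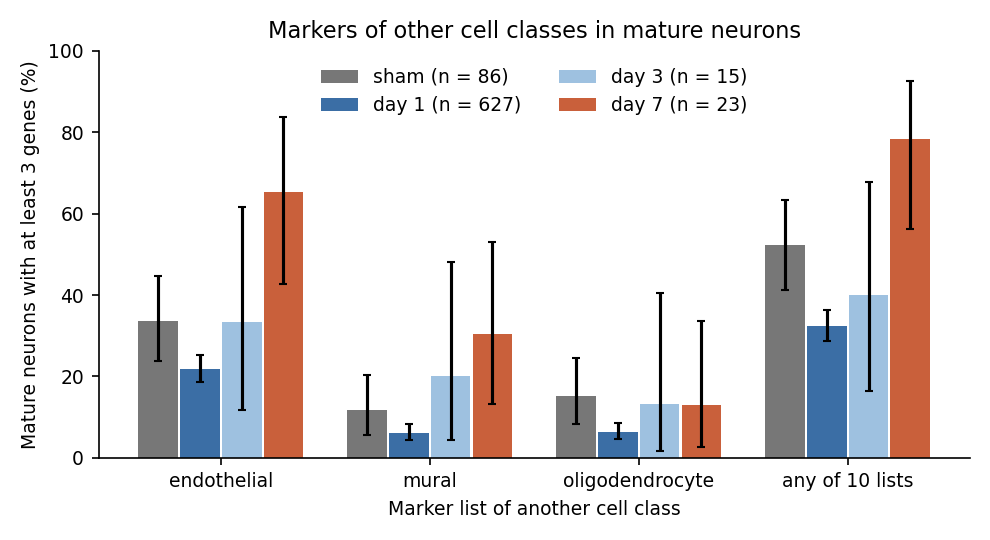
Share of mature neurons (%, y axis) in which at least 3 genes of a marker list of another cell class were detected (x axis), by library. Error bars are exact binomial 95% intervals; the share with endothelial markers is 33.7% in sham, 21.9% on day 1 and 65.2% on day 7.

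The summed endothelial marker level was lower on day 1 and higher on day 7 than in sham, at 7857 CPM in sham members, 1901 on day 1 and 9724 on day 7. The day 3 members held 1343 CPM, with 56.4% of these UMIs from 1 cell. Most lists compared between day 1 and sham are therefore given also for the members without markers of another class, that is, without 3 genes of any of the 10 lists. These numbered 41 in sham and 424 on day 1, and their summed endothelial level was 84.4 and 69.3 CPM, a ratio of 0.821 (0.551 to 1.27). On day 7 only 5 such cells were left and on day 3 only 9, so no comparison could be made. Mural and choroid plexus RNA were further foreign signals. The mural list stood at 1431 CPM in sham members, 793 on day 1, 5202 on day 3 and 5316 on day 7. The median log2 ratio of its 5 genes on day 1 was -1.04, with 3 at least 2-fold lower. That median turned to 0.77 with the upper limit at 3000 genes, 0.68 without cells with endothelial markers and 2.36 in glutamatergic members. It stayed below 0 in GABAergic members, at -2.53 with 5 of 5 lower. Without members carrying other-class markers the summed level was 125 CPM in sham and 29.7 on day 1, a ratio of 0.237 (0.164 to 0.350), with 1 gene tested. In that list 1 cell gave 94.8% of the UMIs on day 3 and 47.8% on day 7. The transthyretin gene Ttr reached 725 CPM in sham members and 11808 on day 1, beside 25005 and 62598 CPM in all other cells, and in the members without other-class markers it was 600.3 and 998 CPM.

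Depth differed less than the classes did. The libraries held 69392755 to 104023002 UMIs, with 3099.5 to 5215 UMIs in the median cell. The median member had 7397 UMIs in sham, 8273 on day 1, 4646 on day 3 and 8257 on day 7, and 3187, 3511, 2325 and 3483 genes. More than 3000 genes were found in 49, 375, 4 and 16 members.

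The transmitter classes were read from the genes that load or make glutamate and GABA. With each cell thinned to 1000 UMIs, glutamatergic members (a UMI of Slc17a7, Slc17a6 or Slc17a8 and none of Gad1, Gad2 or Slc32a1) were 30.6% in sham (21.0 to 41.5%, 85 cells deep enough), 49.5% on day 1 (45.5 to 53.5%, 616 cells) and 8.70% on day 7 (1.07 to 28.0%, 23 cells). GABAergic members made up 21.2% in sham (13.1 to 31.4%), 74 of the 616 cells on day 1 (9.55 to 14.8%) and 26.1% on day 7 (10.2 to 48.4%). These intervals cover counting error within 1 library a group, and the differences were not tested. In endothelial cells, which should lack these genes, the thinned glutamatergic share was 0.591% in sham and 2.26% on day 1, far below that of the members. Without thinning the members were 39 glutamatergic, 26 GABAergic, 3 with both and 18 with neither in sham, and 449, 86, 20 and 72 on day 1.

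**Figure D3:**
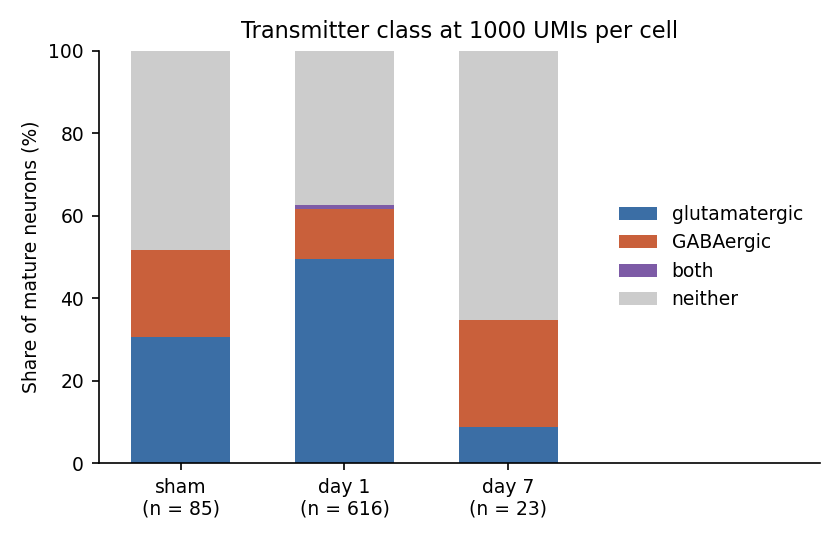
Share of mature neurons (%, y axis) by transmitter class after thinning each cell to 1000 UMIs, for the libraries with at least 20 members (x axis). Glutamatergic cells take 30.6% of the sham bar, 49.5% of the day 1 bar and 8.70% of the day 7 bar.

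Most excitatory cells of day 1 used Slc17a7, the transporter typical of cortex and hippocampus. Slc17a7 without a GABAergic gene marked 29 of 86 sham members (33.7%) and 414 of 627 on day 1 (66.0%), against 1 on day 3 and 5 on day 7. Slc17a6 alone, the form of thalamus and other deep regions, marked 10 in sham (11.6%) and 34 on day 1 (5.42%). At least 3 genes of striatal projection neurons were found in 14 sham members (16.3%) and 117 on day 1 (18.7%).

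Cajal-Retzius cells are the Reln-secreting neurons of the outermost cortical layer. At least 2 of their genes were detected in 10 sham members (11.6%, 5.72 to 20.3%), 32 on day 1 (5.10%, 3.52 to 7.13%), 3 on day 3 and 1 on day 7. The level of Reln was 175 CPM in sham, 29.6 on day 1, 208 on day 3 and 13.1 on day 7. Ndnf, a secreted factor of the same layer, stood at 295, 45.2, 721 and 30.6 CPM, and Lhx1, a transcription factor of these cells, at 48.2, 3.94, 12.2 and 13.1 CPM. All 3 genes were lower on day 1 than in sham also without members carrying other-class markers, with Reln at 147 and 35.3 CPM.

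Among the sham members 4 were unusual. A cell with 18087 UMIs held 651 UMIs of Cga and 18 of Tshb, the subunit genes of a pituitary hormone. At least 10 UMIs of Sag, a gene of photoreceptors and pineal cells, were found in 3 further cells. No member of the other libraries reached 10 UMIs of either gene. These cells carry most of the sham level of a few genes, so they are named wherever a gene turns on them.

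Day 1 was compared with sham gene by gene, on the log2 ratio of CPM with 10 CPM added to both. Of 4855 genes with enough counts, 207 were at least 2-fold higher on day 1 (4.26%) and 411 at least 2-fold lower (8.47%), and the median gene was at 0.04. Leaving out members with other-class markers, 166 of 4904 genes were higher (3.38%) and 251 lower (5.12%). Ratios given for single genes are of the plain CPM.

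The 5 largest differences upward, by a fixed rule that leaves out genes higher in the other cells, were Npy, Ppp1r1b, Fabp3, Mgst3 and Crym. Npy, a peptide of interneurons, had no UMI in sham, which allows up to 4.02 CPM, and 393 CPM on day 1. Only 24 day 1 cells held it, and 1 of them gave 51.8% of its UMIs. Ppp1r1b, the dopamine-regulated phosphatase inhibitor DARPP-32, stood at 26.8 CPM in sham, 213 on day 1, 97.7 on day 3 and 74.3 on day 7 (7.95-fold on day 1, 5.13 to 13.1). This gene was found in 253 of 627 day 1 members and in 12 of 86 in sham.

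Fabp3, a fatty acid carrier, was at 46.9 CPM in sham and 303 on day 1 (6.45-fold, 4.62 to 9.29), and Mgst3, a glutathione transferase of membranes, at 119 and 531 CPM (4.45-fold, 3.61 to 5.56). Crym, a thyroid hormone binding protein of cortex and striatum, was at 37.5 and 184 CPM (4.91-fold, 3.38 to 7.42). Without members carrying other-class markers Ppp1r1b was at 53.1 and 235 CPM (4.42-fold, 2.74 to 7.62), Fabp3 at 65.7 and 349 CPM (5.32-fold), Mgst3 at 116 and 608 CPM (5.26-fold) and Crym at 28.1 and 218 CPM (7.75-fold, 4.06 to 17.0). All 4 kept their direction, with a smaller ratio for Ppp1r1b and a larger one for Crym. Neither Fabp3 nor Mgst3 rested on a few cells, since they were detected in 363 and 431 day 1 members and the top cell gave 1.41% and 1.29% of their UMIs.

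The 5 largest differences downward were Cga, Gkn3, Pde6g, Sag and Apoc3, and none described the sham neurons as a whole. All 651 Cga UMIs and all 115 Apoc3 UMIs came from 1 sham cell each. Sag and Pde6g, both of photoreceptors and pineal cells, were found in 4 and 6 sham members. Gkn3, a gene of arterial endothelium, stood at 418 CPM in sham and 10.1 on day 1, and in the members without other-class markers it was 3.13 and 1.34 CPM.

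**Figure D4:**
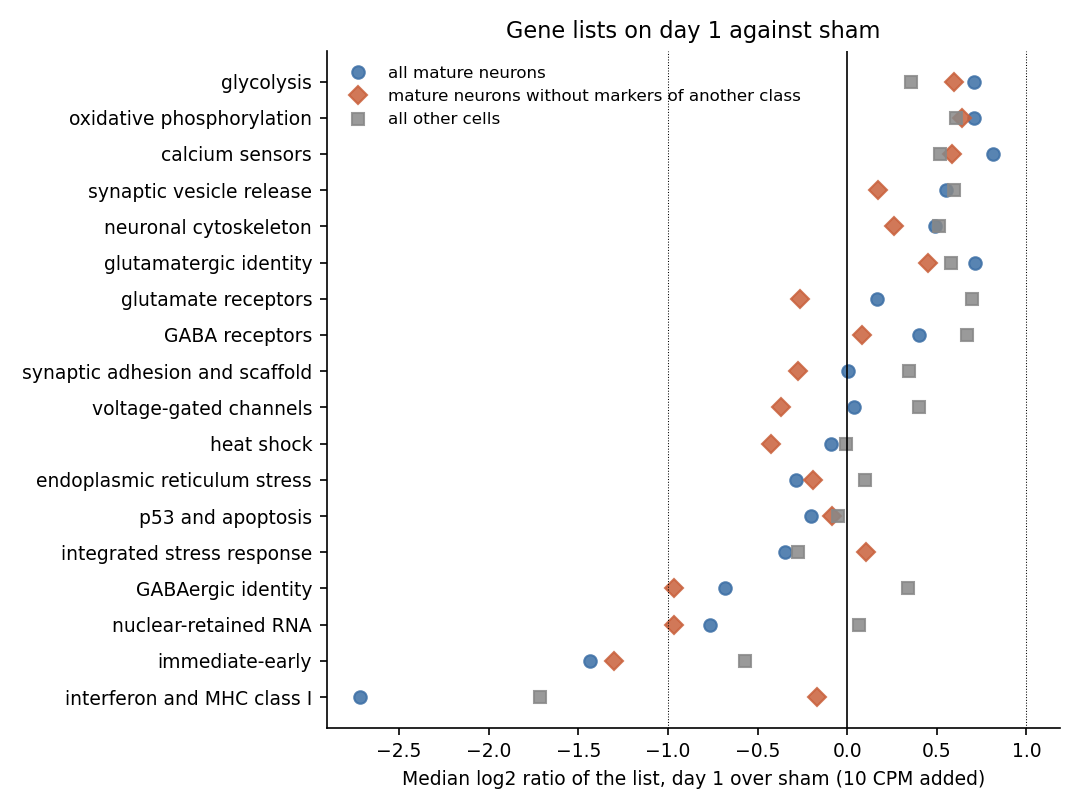
Median log2 ratio of day 1 over sham (x axis, 10 CPM added) for the gene lists (y axis). Blue circles are all mature neurons, red diamonds those without markers of another class and grey squares all other cells; dotted lines mark 2-fold; the immediate-early median is -1.44 in all members and -1.30 without other-class markers, and the interferon median is -2.72 and -0.17.

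Lists of neuronal identity were compared for striatal, interneuron and glutamatergic genes. Of 6 striatal genes 3 were at least 2-fold higher on day 1 and 1 lower (median 1.14, and 0.57 with 1 higher and 1 lower in members free of other-class markers). Of 7 interneuron peptide and calcium buffer genes 3 were higher and 2 lower (median 0.67, and 0.76 in members free of other-class markers). Of 9 measured genes of glutamatergic neurons 4 were at least 2-fold higher and 0 lower, with a median of 0.72. Nrgn, a calmodulin-binding protein of excitatory dendrites, stood at 1344 CPM in sham, 4975 on day 1, 366 on day 3 and 1092 on day 7 (3.70-fold on day 1, 3.48 to 3.95). The other cells held 33.9 CPM of it in sham and 248 on day 1. Their median for the glutamatergic list was 0.58, with 3 of 9 genes at least 2-fold higher, against 94 of all 4855 genes. Tbr1, a cortical transcription factor, was at 52.2 and 169.7 CPM (3.25-fold). Neurod6, a transcription factor of cortical excitatory neurons, was at 46.9 and 112 CPM. In members free of other-class markers, 3 of 9 were at least 2-fold higher (median 0.45), among them Nrgn at 1444 and 5959 CPM and Tbr1 at 90.7 and 203 CPM but not Neurod6, at 93.8 and 136 CPM.

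Within glutamatergic members the list's median was 0.36, with 2 of 9 genes higher. These cells were chosen in both groups by Slc17a7, Slc17a6 or Slc17a8, which are genes of the list, so a smaller difference than over all members follows in part from the choice. They were 39 of 86 members in sham and 449 of 627 on day 1. The 4 GABAergic genes had a median of -0.68, and 0 were at least 2-fold apart. Gad1 stood at 142 CPM in sham, 70.5 on day 1, 269 on day 3 and 367 on day 7, and Gad2 at 147, 85.3, 134 and 380.1 CPM. Leaving out members with other-class markers, Gad1 passed 2-fold, at 209 and 80.8 CPM (median of the list -0.97).

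Genes of the synaptic vesicle, which load and release transmitter, had a median of 0.55, and 3 of 18 were at least 2-fold higher: Syn1, Stx1a and Cplx1. Syn1, which tethers vesicles, stood at 129.9 CPM in sham, 355 on day 1, 208 on day 3 and 78.6 on day 7. Stx1a, a membrane partner of Snap25, was at 97.8, 314, 36.6 and 56.8 CPM, and Cplx1, a clamp on fusion, at 58.9, 179, 147 and 114 CPM. All other cells gave a median of 0.59 for the same list, at levels of 801 CPM in sham and 1025 on day 1 against 4977 and 7324 CPM in the members. In members free of other-class markers the median was 0.17 with 2 of 18 genes at least 2-fold higher, Syn1 no longer among them at 203 and 410.1 CPM, and the summed level was 7266 and 8502 CPM.

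Receptors and channels stood nearly level. For glutamate receptors 0 of 11 genes were at least 2-fold apart (median 0.17), for voltage-gated channels 0 of 18 (median 0.04) and for synaptic adhesion and scaffold proteins 0 of 12 (median 0.01). Gria2, the subunit that keeps calcium out of AMPA receptors, was at 761 CPM in sham and 856 on day 1, and Grin1, the common subunit of NMDA receptors, at 291 and 383 CPM. Of 11 GABA receptor genes 1 was higher (median 0.40), Gabra4, at 45.5 and 111 CPM, and with other-class members left out 0 of 12 passed 2-fold (median 0.08), Gabra4 being at 62.5 and 123 CPM. Without members carrying other-class markers the medians of the first 3 lists were below 0, at -0.26, -0.37 and -0.27, and 0 genes passed 2-fold. With 1 library a group, a difference smaller than that between animals could not be seen.

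Calcium sensors had a median of 0.82, with 4 of 10 at least 2-fold higher. Calm2, a calmodulin gene, was at 1875, 4513, 2748 and 1389 CPM, and Hpca, a calcium switch of hippocampal and cortical neurons, at 134, 359.6, 36.6 and 122 CPM. Calm3 and Camk2n1, an inhibitor of the kinase Camk2a, completed the 4. In members free of other-class markers only Calm2 and Hpca of the 10 passed 2-fold (median 0.58), with Calm3 at 647 and 1155 CPM and Camk2n1 at 807 and 1436 CPM.

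Cytoskeletal genes of neurons had a median of 0.49, with 5 of 14 at least 2-fold higher. They were Uchl1, a ubiquitin hydrolase abundant in neurons (224 CPM in sham, 874 on day 1), the tubulins Tubb2a (368 and 918 CPM) and Tubb3 (151 and 418 CPM), the tubulin-binding Stmn3 (819.8 and 1877 CPM) and the neurofilament Nefm (34.8 and 84.4 CPM). Day 7 levels of these genes, from 13.1 CPM for Nefm to 708 CPM for Stmn3, lay nearer to sham. In all other cells the list's median was 0.51, at summed levels of 1965 and 1978 CPM. With other-class members left out 4 of 14 passed 2-fold (median 0.26), all but Stmn3, at 1294 and 2213 CPM.

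**Figure D5:**
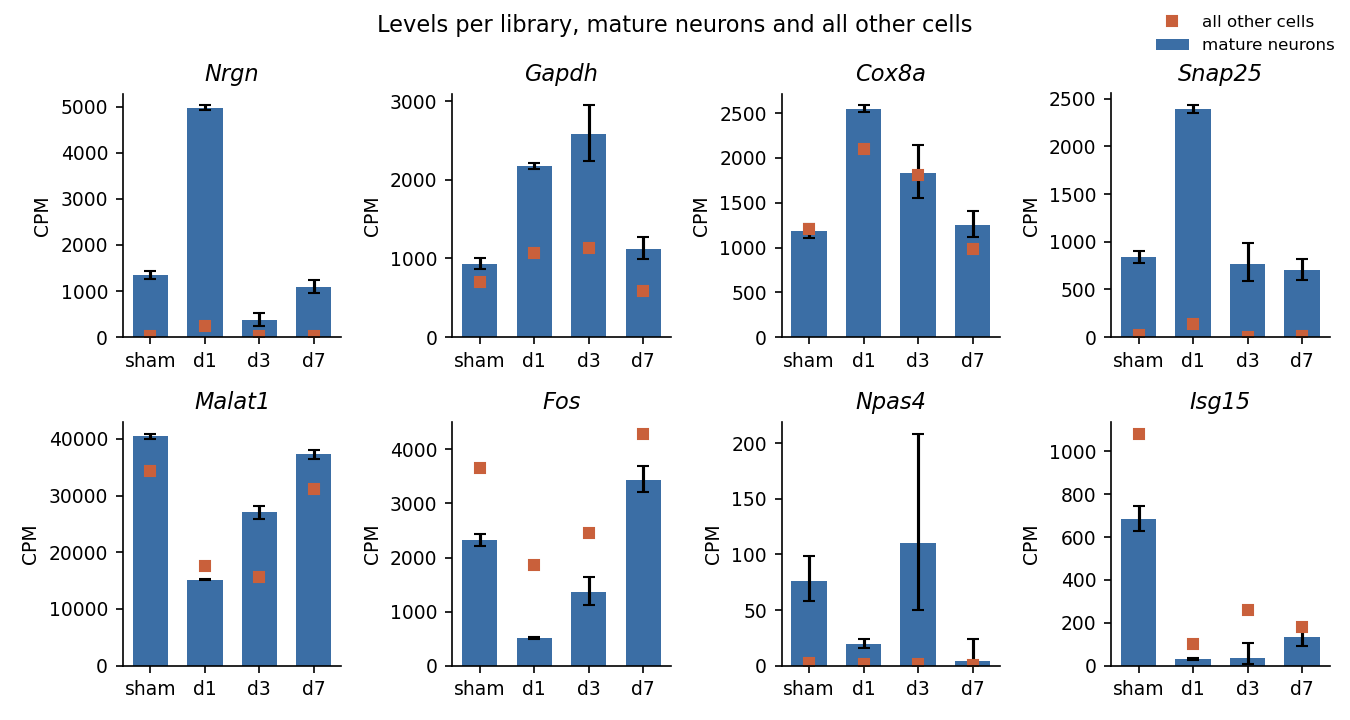
Level (CPM, y axis, linear from 0) of 8 genes in mature neurons (blue bars, with exact Poisson 95% intervals) and in all other cells (red squares) of each library (x axis, d for day). Nrgn, Gapdh, Cox8a and Snap25 are higher on day 1 than in sham, and Malat1, Fos, Npas4 and Isg15 lower. Members were chosen in part by Snap25, so its level is a description only. Each panel has its own scale.

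Energy metabolism genes had ratios of day 1 to sham mostly between 1 and 2. Of 34 nuclear genes of oxidative phosphorylation, which makes adenosine triphosphate in mitochondria, 33 had a ratio above 1, against 2548 of all 4855 genes, and 5 were at least 2-fold higher (median 0.71). The 5 became 11 (median 0.92) without the 4 sham members with Cga or Sag, beside 4.15% of all genes. With all 4 markers asked for they became 18 of 34 (median 1.00), beside 3.87% of all genes. With the upper limit at 3000 genes they became 2 of 34 (median 0.34), beside 10.3% of all genes. The summed level of the 34 genes was 14833 CPM in sham (14558 to 15112), 25626 on day 1 (25496 to 25756), 23179 on day 3 and 13713 on day 7. The summed day 7 value thus lay near that of sham, and day 1 stood apart from both. Of the 23 day 7 members 18 carried other-class markers, and their part in the day 7 value was not tested. Cox8a, a subunit of cytochrome c oxidase, was at 1180.2, 2548, 1832 and 1254 CPM, and Atpif1, the inhibitor of the mitochondrial synthase, at 502, 1234, 867 and 612 CPM.

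All other cells showed the same direction for this list, at 14539 CPM in sham and 22428 on day 1, with a median of 0.61. In the other cells 30 of the 34 genes had a ratio above 1, against 2349 of all 4855 genes. In 27 of the 34 genes the log2 ratio was larger in the members than in the other cells, against 2543 of all 4855 genes. Immature neurons gave a median of 0.19. Without members carrying other-class markers the level was 15341 and 26265 CPM (1.71-fold, 1.66 to 1.76), so the difference was as large without those cells.

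Of the genes of glycolysis, which splits glucose in the cytosol, 12 of 15 had a larger log2 ratio in the members than in the other cells. Over all genes this held for 2543 of 4855. All 15 genes had a ratio above 1, and 3 were at least 2-fold higher: Aldoa (944 CPM in sham, 2308 on day 1, 2162 on day 3, 1018 on day 7), Gapdh (932, 2172, 2577 and 1123 CPM) and the neuronal enolase Eno2 (202, 547, 208 and 118 CPM). The summed level was 5362, 10322, 11125 and 5164 CPM. The ratio of day 7 to sham was 0.963 (0.902 to 1.03). In the other cells too all 15 genes had a ratio above 1. Their summed level was 3188 CPM in sham and 4302 on day 1 (median 0.36 against 0.71 in the members). Immature neurons stood at 4608 and 4181 CPM. In the members without other-class markers the level was 6769 and 11705 CPM (1.73-fold, 1.66 to 1.81), with 4 of 15 genes at least 2-fold higher, Aldoa and Gapdh among them but not Eno2, at 338 and 622 CPM.

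Cell by cell, day 1 had the highest medians of both lists and day 7 the lowest among the libraries compared. The median member had 3801 CPM of glycolysis genes in sham, 8819 on day 1, 6346 on day 3 and 2978 on day 7. For oxidative phosphorylation the medians were 11058, 17792, 17530 and 8191 CPM. The spread between cells was wide: the quartiles were 6585 and 17345 CPM in sham and 9288 and 29966 CPM on day 1.

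Of the hypoxia response list 3 genes had enough counts, and 1 was at least 2-fold higher and 1 lower (median 0.56). Bnip3, a mitochondrial protein induced by low oxygen, was at 61.6 CPM in sham, 147 on day 1, 61.1 on day 3 and 127 on day 7. P4ha1, a collagen-modifying enzyme, was the lower one, at 65.6 and 27.2 CPM, and Higd1a was at 192 and 288 CPM. With other-class members left out Bnip3 was at 78.2 and 161 CPM, short of 2-fold, and P4ha1 at 78.2 and 27.3 CPM. Vegfa, the endothelial growth factor, stayed under the count limit, at 20.1 and 18.7 CPM.

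Immediate-early genes were lower in the day 1 neurons than in sham. Of 15 measured genes 8 were at least 2-fold lower and 1 higher, with a median of -1.44. Their summed level was 8174 CPM in sham (7970.4 to 8382), 3009.8 on day 1 (2965 to 3055), 5862 on day 3 and 13883 on day 7. Among the libraries compared, day 1 lay lowest and day 7 highest. All other cells were lower on day 1 as well, at 13119 and 7502 CPM, with a median of -0.57. There 1 of 15 genes of the list was at least 2-fold lower, against 117 of all 4855 genes.

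Fos, a subunit of the AP-1 transcription factor, stood at 2317 CPM in sham, 506 on day 1, 1356 on day 3 and 3442 on day 7 (0.218-fold on day 1, 0.206 to 0.232). At least 2 UMIs of Fos were found in 44 of 86 sham members (51.2%), 151 of 627 on day 1 (24.1%), 6 of 15 on day 3 and 15 of 23 on day 7 (65.2%). Its partner Jun was at 1148, 259, 598 and 2097 CPM, and Junb at 1003, 365, 989 and 1887 CPM. Fosb, Ier2, Dusp1 and Btg2 were the other broadly expressed genes of the 8.

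Npas4, which is made almost only in neurons after calcium entry, stood at 76.4 CPM in sham, 19.7 on day 1, 109.9 on day 3 and 4.37 on day 7 (0.258-fold on day 1, 0.186 to 0.361). Other cells held little of it, at 2.53 CPM in sham and 1.59 on day 1. Arc, a synaptic protein made on firing, was at 129, 66.8, 122 and 4.37 CPM, which did not reach 2-fold on day 1. A single sham cell gave 38.5% of the sham Arc UMIs. Nr4a2, a nuclear receptor, was the gene that was higher, at 20.1 and 53.1 CPM (2.64-fold, 1.58 to 4.78).

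Without members carrying other-class markers, 9 of 15 genes were at least 2-fold lower and 1 higher, with a median of -1.30 and a summed level of 3802 and 1642 CPM (0.432-fold, 0.406 to 0.460). Fos was at 669 and 87.7 CPM, Npas4 at 131 and 21.7 CPM, Arc at 234 and 70.1 CPM, and Egr1, a zinc finger factor, at 466 and 181 CPM. The sham level of Fos was thus mostly in members with other-class markers, while those of Npas4 and Arc were not. With the upper limit on a cell set at 3000 genes, 37 sham and 252 day 1 members were left and the median was -0.08, so the difference was not seen in the shallower cells.

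The promoters of the immediate-early list were searched for 1 motif. The cAMP response element, TGACGTCA on both strands, is the binding sequence of the activity-dependent factor CREB. Promoters of 15 of the 19 listed genes were found in the RefSeq table (build GRCm38.p6), and 2 of the 15 held this exact 8-base element in the 250 bases before the start, against 478 of 27025 genes (1.77%). They were Btg2, an anti-proliferative gene (358 CPM in sham, 104 on day 1), and Dusp1, a phosphatase that shuts off stress kinases (587 and 207 CPM). The match begins 166 bases before the start in Btg2 (chr1:134079156-134079405, minus strand) and 143 bases before it in Dusp1 (chr17:26508473-26508722, minus strand). Both are shown 5′ to 3′ with the element in capitals, because they are the 2 of the 15 promoters found that hold the full element. A match in letters is a description of the sequence only.
Btg2: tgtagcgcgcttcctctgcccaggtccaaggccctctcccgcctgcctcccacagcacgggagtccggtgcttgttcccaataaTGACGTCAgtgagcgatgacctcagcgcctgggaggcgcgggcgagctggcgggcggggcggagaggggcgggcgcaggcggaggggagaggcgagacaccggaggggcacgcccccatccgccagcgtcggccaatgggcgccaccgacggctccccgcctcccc
Dusp1: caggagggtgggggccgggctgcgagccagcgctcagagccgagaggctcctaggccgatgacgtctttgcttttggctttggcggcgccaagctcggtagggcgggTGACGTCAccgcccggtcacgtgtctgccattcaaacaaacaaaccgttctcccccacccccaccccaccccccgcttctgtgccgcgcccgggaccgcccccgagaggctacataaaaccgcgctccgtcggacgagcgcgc

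Among secreted and trophic proteins of neurons, of 11 measured genes 3 were at least 2-fold lower (median -0.13): Chga, Chgb and Scg2, proteins of the large dense-core vesicles that store peptides. Chgb stood at 1017 CPM in sham, 394 on day 1, 904 on day 3 and 179 on day 7, and Scg2 at 395, 120.2, 159 and 288 CPM. Chga, at 575 and 149 CPM, had 81.6% of its sham UMIs in 1 cell, and without the 4 sham members with Cga or Sag its log2 ratio turned to 0.43. For Chgb that ratio was -0.60 without them. In members free of other-class markers 5 of 12 genes of the list were at least 2-fold lower (median -0.68), Chgb and Scg2 among them at 1719.5 and 479.7 CPM and at 506 and 144 CPM. Of the 4 sham members with Cga or Sag, 2 remain in this set. Bdnf, the main activity-dependent growth factor, was too low to compare, at 22.8 and 20.5 CPM.

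Of 8 genes of the endoplasmic reticulum stress list 0 were at least 2-fold apart between sham and day 1 (median -0.29), and of 3 measured genes of the integrated stress response 0 (median -0.35). With other-class members left out the counts were 1 of 8 lower (median -0.19) and 0 of 2 (median 0.11). Atf4, a transcription factor of the integrated stress response, was at 118 CPM in sham and 90.4 on day 1, and Ddit3, its target in dying cells, at 32.2 and 26.0 CPM. On day 7, 2 of 4 genes of this response were at least 2-fold higher (median 0.67), beside 7.66% of all genes. They were Ppp1r15a, a phosphatase subunit that restarts translation, at 109 CPM in sham and 310.2 on day 7, and Ddit4, an inhibitor of growth signalling, at 16.1 and 65.5 CPM. In the other cells Ppp1r15a was at 268 and 323 CPM and Ddit4 at 62.3 and 177 CPM. Of 4 genes of the p53 list 1 was lower on day 1 (median -0.20, and -0.09 in members free of other-class markers): Cdkn1a, the cell cycle inhibitor, at 212 and 50.9 CPM, and at 71.9 and 15.8 CPM without other-class members, while Bax, which opens mitochondria in apoptosis, was at 186 and 165 CPM. In the axon injury list 1 of 8 genes was higher and 2 lower (median 0.04), and in members free of other-class markers 1 of 7 was higher and 1 lower (median -0.05). Atf3 was at 465 and 108 CPM and Klf6 at 287 and 91.6 CPM, both at least 2-fold lower. These were mostly in the cells with other-class markers, since without them Atf3 was at 12.5 and 9.90 CPM and Klf6 at 62.5 and 60.2 CPM. Gap43, a growth cone protein, was the axon injury gene that was higher, at 146 and 306 CPM.

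Heat shock genes, which encode chaperones, had a median of -0.09, with 1 of 11 at least 2-fold lower. The 1 was Hspb1, a small chaperone abundant in vessels, at 1258 CPM in sham and 313 on day 1. Without the members carrying other-class markers it was at 15.6 and 16.9 CPM. The inducible Hspa1a was at 242, 143, 293 and 319 CPM from sham to day 7. In the members free of other-class markers the list median was -0.43, and 2 of 9 genes were lower, beside 5.12% of all genes. Hspa1a was at 238 CPM in sham and 41.2 on day 1 (0.173-fold, 0.131 to 0.231), and Hspa1b at 181 and 32.4 CPM, whereas in all other cells Hspa1a was at 204 and 517 CPM. The difference between the neurons and the other cells was not tested.

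Of 9 genes of oxidative and metal defence 1 was at least 2-fold higher (median 0.35), and in members free of other-class markers 1 was higher and 2 lower (median 0.32). Of the metallothioneins, small proteins that bind zinc, Mt1 was at 1145 CPM in sham members and 655 on day 1, and Mt2 at 162 and 82.9 CPM, while the other cells went from 1033 to 2480.3 CPM of Mt1 and from 109.8 to 252 of Mt2. In the sham members 34.5% of the Mt1 UMIs came from 1 cell. Mt3, the brain form, was at 289, 1919, 696 and 301 CPM in the members and at 448, 2169, 946 and 295 CPM in the other cells. The source of the Mt3 RNA in the members was not tested. Hmox1, the heme-degrading enzyme, had 3 UMIs in sham members.

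Interferon and MHC class I genes, which report antiviral signalling and antigen display, differed widely between the groups. Of 12 genes 11 were at least 2-fold lower on day 1 (median -2.72), and the summed level was 5719 CPM in sham, 877 on day 1, 1001 on day 3 and 4115 on day 7. In all other cells 10 of the 12 were at least 2-fold lower (median -1.71), against 117 of all 4855 genes. In immature neurons 8 were lower (median -1.63), against 198 of all 4855 genes. Isg15, a ubiquitin-like interferon target, was at 685, 30.0, 36.6 and 135 CPM, and in the other cells at 1082, 103, 259 and 181 CPM. The summed level in endothelial cells was 16818 CPM in sham, 6357 on day 1, 12602 on day 3 and 8458 on day 7. In members without other-class markers the summed level was 259 CPM in sham and 190.5 on day 1, only 2 genes had enough counts, and their median was -0.17. Most of the interferon level of the sham members thus lay in members with markers of another class, and the part of that RNA in the difference was not tested.

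Of 6 nuclear-retained RNAs 1 was at least 2-fold lower on day 1, Malat1 (list median -0.77), and 2 of 5 were in members free of other-class markers (median -0.97). Malat1 stood at 40472 CPM in sham, 15136 on day 1, 27025 on day 3 and 37281 on day 7 (0.374-fold on day 1, 0.369 to 0.379). In the other cells it was at 34348, 17548, 15726 and 31104 CPM, and in members without other-class markers at 43976 and 16546 CPM. Snhg11, a nuclear RNA of neurons that did not pass 2-fold, was at 3242, 2011, 2137 and 3246 CPM. Lars2 and Gm42418, 2 transcripts whose reads are often taken for ribosomal RNA, went from 485 to 62.3 CPM and from 10134 to 1003 CPM in the members, and from 339 to 53.4 and from 8173 to 918 CPM in the other cells. These transcripts differed between the libraries in both kinds of cells.

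The comparison was repeated within each transmitter class. Among glutamatergic members, 39 in sham and 449 on day 1, 236 of 4879 genes were at least 2-fold higher (4.84%) and 370 lower (7.58%). Of 15 immediate-early genes 10 were lower and 0 higher (median -1.23), of 34 oxidative phosphorylation genes 12 were higher (median 0.79), and of 15 glycolysis genes 4 were higher (median 0.84). Among GABAergic members, 26 and 86, 452 of 4934 genes were higher (9.16%) and 429 lower (8.69%). In this class 8 of 12 immediate-early genes were lower (median -1.90), 1 of 34 oxidative phosphorylation genes was higher (median 0.58) and 1 of 15 glycolysis genes (median 0.52). These 3 lists had the same direction in both classes. In the 27 sham and 340 day 1 glutamatergic members without endothelial markers, 236 of 4859 genes were higher (4.86%) and 334 lower (6.87%), and 12 of 15 immediate-early genes were lower (median -1.46). The striatal list had a median of 2.60 with 9 of 10 genes higher in GABAergic members. In glutamatergic members only 3 of its genes were tested, 1 higher and 1 lower (median -0.68). Its summed level there was 232.8 CPM in sham and 230.9 on day 1.

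Day 7 was compared with the same sham library as day 1. Of 5144 genes 394 were at least 2-fold higher (7.66%) and 280 lower (5.44%), with the median gene at 0.02. The 5 largest differences upward were Npy, Lcn2, Penk, Irs4 and Vwf. Npy (502 CPM) came from 2 cells, Lcn2, a siderophore-binding protein (175 CPM), from 2, and Penk, an opioid peptide (738 CPM), and Irs4, an insulin signalling adaptor (118 CPM), from 1 each. Only Vwf, the clotting factor of endothelium, was spread over more, with 555 CPM in 11 cells against 41.5 CPM in sham. The 5 downward were Cga, Tac1, Calb2, Sag and Pde6g, of which Calb2, a calcium buffer of interneurons and Cajal-Retzius cells, stood at 419 CPM in sham, 69.9 on day 1, 3285 on day 3 and 4.37 on day 7, and Tac1, the gene of substance P, at 335, 120.2, 562 and 0 CPM.

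Genes of the neuronal surface and synapse had medians below 0 in the day 7 cells, whereas those of GABAergic and striatal neurons did not. Of 18 synaptic vesicle genes 4 were at least 2-fold lower and 0 higher (median -0.67), of 17 voltage-gated channels 4 (median -0.62) and of 9 pumps 2 (median -0.84). Of 4 GABAergic genes 3 were higher (median 1.31) and of 5 striatal genes 3 were higher and 1 lower (median 1.11), and 1 cell gave 88.2% of the striatal UMIs of day 7. Syp, a membrane protein of vesicles, was at 476 CPM in sham and 214 on day 7, and Nptx1, a secreted synaptic protein, at 277 and 43.7 CPM. Mural genes were higher in 4 of 5 cases, with Acta2 at 268 and 1835 CPM and Tagln at 257 and 1433 CPM, and 1 cell gave 58.6% of the day 7 Acta2 UMIs. Of 15 immediate-early genes 5 were higher and 2 lower (median 0.86). The broadly expressed Fosb, at 244 CPM in sham and 607 on day 7, was among the former, while the neuronal Npas4, at 76.4 and 4.37 CPM, and Arc, at 129 and 4.37 CPM, were the latter. These differences stand beside a share of cells with endothelial markers of 33.7% in sham and 65.2% on day 7, and its part in them was not tested.

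The 15 day 3 cells are given without comparison. By detected genes 9 were GABAergic, 3 glutamatergic, 1 both and 2 neither. At least 2 UMIs of Calb2 were found in 6 of them, at least 2 Cajal-Retzius genes in 3 and at least 3 immature neuron genes in 10. They held 2577 CPM of Gapdh, 27025 CPM of Malat1 and 109.9 CPM of Npas4, and 1 cell gave 77.8% of the Npas4 UMIs. With 81886 UMIs in all, a gene with no UMI may be as high as 36.6 CPM, so lowly expressed genes could not be read in this library.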

How the data were processed

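Droplet single-cell RNA-seq libraries, 1 for each of sham and day 1, 3 and 7 after tMCAO, were used as UMI count matrices. The authors made and deposited these counts, and the file headers name Cell Ranger 4.0.0, while the submitters' processing notes name Cell Ranger 3.0.1, Seurat 4.1.2 and the build GRCh38, which does not match the mouse gene identifiers. No gene coordinates are therefore given except those of promoters, which come from a RefSeq table of GRCm38.p6.

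Cells were kept and mature neurons chosen by the rule given above. Their raw counts were summed per library and divided by the total to give CPM. A gene was compared when it reached 50 CPM in 1 of both libraries and 20 UMIs in both together, leaving out the rule genes and mitochondrial genes, and it was counted as higher or lower at a 2-fold difference of CPM with 10 added. Intervals are exact (Clopper-Pearson for shares, Poisson for counts, conditional binomial for ratios), at 95%, and cover counting error only. UMIs limit the precision: the summed members held 746496 UMIs in sham, 5840301 on day 1, 81886 on day 3 and 228911 on day 7. A gene at 0 is compatible with up to 3 counts, that is 4.02, 0.514, 36.6 and 13.1 CPM.

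The members and the 40 gene lists were chosen with earlier results of these data known, and 2 further lists (cortical layers, and pituitary and pineal) were added after the values were seen. For each day the 5 largest differences in each direction are named, among genes that reached 100 CPM in either library and whose level in the other cells of the higher library did not exceed that in the members, leaving out Gm42418 and haemoglobin genes, and from the lists the 4 members with the highest mean level. Further list members and Gm42418 are named because of their role or because they passed 2-fold, and were chosen after their values were seen. Doublets were called with Scrublet in scanpy 1.11.5 and kept in the main values. The scripts used Python 3.11.15, numpy 2.4.6, scipy 1.17.1, pandas 2.3.3 and matplotlib 3.10.9 and were tested on simulated data. Alternatives changed the gene and mitochondrial limits, the number of markers, doublets, cells with endothelial or other-class markers, transmitter class, pseudocount, low-count limit and scaling. Day 3, with fewer than 20 members, was left out of comparisons. Some members of the lists are not reported here by name.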

Additional observations from a re-analysis of the deposited data

Results flagged for a closer look

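Cells removed for high mitochondrial content were looked at for the same neuronal rule. Among cells with more than 10% mitochondrial UMIs, 70 of 883 on day 1 met it (7.93%, 6.23 to 9.91%), against 26 of 1127 in sham (2.31%, 1.51 to 3.36%). These cells are outside every comparison above.

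The chaperone gene Hspa1a and the metallothionein genes Mt1 and Mt2 went opposite ways in mature neurons without other-class markers and in other cells. In members without other-class markers the log2 ratio of day 1 over sham was -2.27 for Hspa1a, -2.39 for Mt1 and -2.05 for Mt2. In all other cells it was 1.30, 1.26 and 1.13. Immature neurons, which are among the other cells, had a ratio above 1 in 9 of 9 tested oxidative and metal defence genes. Over all genes this held for 2144 of 4855. Mt1 and Mt2 belong to that list, so the contrast is not one of all neurons against other cells. The difference between the mature neurons and the other cells was not tested, as each group has 1 library.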

How the results depend on the processing

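No paired analysis was possible because each group has 1 library. The medians of the oxidative phosphorylation and glycolysis lists on day 1 moved by less than 1.5-fold under every alternative run. The share of mature neurons moved most with the rule: with the limit of 3000 genes it was 0.489% in sham, 1.88% on day 1 and 0.0498% on day 7. With all 4 markers it was 0.383%, 2.64%, 0.0354% on day 3 and 0.0483% on day 7, and with at least 2 markers 4.23%, 7.80%, 0.947% and 1.93%. Without cells with 2 endothelial markers it was 0.510%, 2.77% and, on day 7, 0.0483%, and without members carrying other-class markers 0.402%, 2.54% and 0.0302%. Thinned to 1000 UMIs it was 0.665% in sham and 4.41% on day 1.

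The 207 genes higher on day 1 became 539 with the 3000-gene limit, 452 in GABAergic members, 80 with 50 CPM added and 98 at 200 CPM. The 411 lower became 209 without cells with endothelial markers, 251 without other-class markers, 170 with 50 CPM added, 100 at 200 CPM and 704 with no low-count limit. For day 7 the 394 higher became 125, 105 and 728 with 50 CPM added, at 200 CPM and with no limit, and the 280 lower 79, 60 and 787, and 467 when cells were weighted equally.

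The immediate-early median of -1.44 was -0.083 with the 3000-gene limit and -0.83 with no low-count limit. The interferon median of -2.72 was -1.54 with the 3000-gene limit and -2.10 with 50 CPM added. It was -0.17 on 2 tested genes without other-class markers and -0.12 on 4 in glutamatergic members without endothelial markers. Without cells with endothelial markers it was 0.30, on 4 of the 12 genes, of which 0 were at least 2-fold higher and 1 lower. The summed level stayed below sham without other-class markers, at 0.734-fold (0.584 to 0.933). The glutamatergic share was 45.3% in sham and 71.6% on day 1 not thinned, 63.6% on day 1 at 2000 UMIs, and 13.9% and 42.3% with the 3000-gene limit, where the GABAergic share on day 1 was 17.8%.

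Some values reversed. The mural median on day 1, -1.04, turned to 0.77 with the 3000-gene limit, 0.68 without cells with endothelial markers, 2.36 in glutamatergic members and 2.32 in those without endothelial markers. The striatal median, 1.14 on day 1 and 1.11 on day 7, turned to -0.68 and -0.74 in the same pair of glutamatergic sets and, on day 7, to -0.52 at 200 CPM. Only 3 striatal genes were tested in each of these glutamatergic sets. Chga turned to 0.81 (3000 genes), 0.75 on day 1 and 0.18 on day 7 (5% mitochondrial limit), 0.92 (GABAergic), 0.058 and 0.0018 (both glutamatergic sets) and 0.43 (without sham cells with Cga or Sag). Sag turned to 0.29 and 0.073 under the first and last of these. In GABAergic members Chgb was 0.26, Nr4a2 -0.83, Reln 0.50 and Stx1a -0.47. Hspb1 was 0.067 without other-class markers, and Gkn3 and Klf6 were 0.24 in glutamatergic members without endothelial markers. The cause was not tested for any of these. Alternatives that left fewer than 20 members on day 7 were not run for that day.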
